A study of Mus musculus with 2 samples.

Results

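The immediate early and AP-1 genes are 10 genes, found by symbol among the 24354 genes of the deposited FPKM values. They are the Fos family genes Fos, Fosb, Fosl1 and Fosl2, the Jun family genes Jun, Junb and Jund, the related factor gene Atf3, the zinc finger factor gene Egr1 and the phosphatase gene Dusp1. All 10 were found. FPKM counts sequenced fragments for each kilobase of a transcript and corrects for the size of the library, so levels of different genes can be compared per length. The study asked what Ino80, the ATPase of a chromatin remodeling complex, does in differentiating mouse ESCs. Poly(A) RNA of 1 control culture (Diff–CONT, called the control library here) and of 1 culture of the inducible Ino80 knockout line (Diff–iKO, called the iKO-labelled library) was sequenced, so no difference has a replicate check and no test of the conditions is possible. By the study's methods both lines derive from blastocysts with the floxed Ino80 2f/2f allele, and the knockout line alone carries the ROSA26-CreER allele, which places a tamoxifen-activated Cre under a promoter active in most cells. GEO labels the control genotype as WT. Both cultures formed EBs, attached on day 4, and were then kept for 7 days in differentiation medium with FBS, BMP4 and 0.5 µM 4-OHTM, the tamoxifen metabolite that activates CreER.

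Immediate early genes are transcribed within minutes of a signal, from factors already present in the cell, and their RNA is short-lived. FOS and JUN proteins pair through leucine zippers to form AP-1, which binds DNA and drives growth, migration and stress programs. Mitogen-activated protein kinases (MAPKs) switch these genes on through factors bound to their promoters, and DUSP1 in turn removes phosphate from the kinases. In ESCs, this signaling is tied to the exit from self-renewal.

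Ino80 itself was at 8.90 FPKM in the control library and at 10.3 FPKM in the iKO-labelled library, a log2 ratio of 0.21. Whole-gene FPKM thus did not set the libraries apart the way the labels would. It does not resolve the single exon that the study's Ino80 qPCR detects, so it is a weak check of the deletion. The cardiac troponin T gene Tnnt2, whose protein the study stained, was at 14.7 and 4.17 FPKM. Each direction below rests on the labels. About 27523749 fragments lay on 21738 genes in the control library and 21445874 in the iKO-labelled library, as recovered from the steps in low FPKM values. Intervals below are exact 95% intervals from these fragments unless called approximate. They cover counting error only, not the variation between cultures.

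Promoters, where the kinase signal reaches these genes, are shown for Fos, Jun and Dusp1. Fos and Jun give the Fos and Jun families their names, and Dusp1 is the member with the highest level in the iKO-labelled library. Each line gives the 250 bases before the RefSeq start site (GRCm38.p6), read 5′ to 3′ on the strand of the gene. Fos lies at chr12:85473640-85473889 on the plus strand, Jun at chr4:95052223-95052472 on the minus strand and Dusp1 at chr17:26508473-26508722 on the minus strand. Capitals mark the matches to the motifs searched, which are the CRE TGACGTCA and its part TGACGT, to which CREB and ATF factors bind, the AP-1 site TGACTCA and its variant TGACATCA, the EGR sites GCGTGGGCG and GCGGGGGCG, the TATA box TATAAA and the CArG box of SRF.
Fos promoter: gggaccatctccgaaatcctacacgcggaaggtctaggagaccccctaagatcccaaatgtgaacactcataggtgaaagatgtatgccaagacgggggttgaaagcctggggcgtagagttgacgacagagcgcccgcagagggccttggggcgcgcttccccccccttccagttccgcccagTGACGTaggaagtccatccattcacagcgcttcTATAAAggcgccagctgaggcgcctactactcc
Jun promoter: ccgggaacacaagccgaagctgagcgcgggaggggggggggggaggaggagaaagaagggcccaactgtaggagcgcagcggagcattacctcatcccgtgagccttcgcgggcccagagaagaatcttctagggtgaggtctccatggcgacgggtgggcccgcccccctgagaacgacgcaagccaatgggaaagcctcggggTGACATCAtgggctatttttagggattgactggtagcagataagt
Dusp1 promoter: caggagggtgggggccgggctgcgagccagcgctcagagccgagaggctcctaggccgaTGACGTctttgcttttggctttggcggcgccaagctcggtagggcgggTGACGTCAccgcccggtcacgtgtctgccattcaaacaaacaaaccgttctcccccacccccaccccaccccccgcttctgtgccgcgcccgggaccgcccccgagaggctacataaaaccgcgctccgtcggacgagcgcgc

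Fos had TGACGT from 66 to 61 bases before its start site and TATAAA from 33 to 28 bases before it. Jun had the AP-1 variant TGACATCA from 45 to 38 bases before the start site. Dusp1 had a full CRE from 143 to 136 bases before the start site, which also matches TGACGT on both strands, and a further TGACGT from 191 to 186 bases before it. Atf3 had TGACGT on the opposite strand, from 8 to 3 bases before its start site. Promoter windows of 300 bases, 250 before the start site and 50 from it on, were looked at for 8 members. Those of Egr1 and Fosl1 were not analysed here. TGACGT was found in 3 of the 8 windows (Fos, Atf3 and Dusp1), against 7.51% of 32851 RefSeq promoters. The full CRE was in 1.79% of all promoters and TGACATCA in 3.62%. GCGGGGGCG was found in Fosb and Fosl2, against 2.91% of all promoters. Their windows were 68.3% and 64.7% G or C, against a median of 52.7% over all promoters. TATAAA was found in Fos and Junb, against 13.6%. The Junb match does not lie before the start site but in the last 50 bases of its window. TGACTCA (5.20% of all promoters), GCGTGGGCG (0.612%) and the CArG box (1.63%) had no match in the 8 windows. Sequence farther upstream was not searched, so no match here does not mean that a gene lacks the site. The windows of Jund and Fosl2 are set on start sites 1210 and 671 bases from the GENCODE start of the transcript used here. Those of Dusp1 and Junb are set 47 and 30 bases from it. A match of letters does not show that a factor was bound.

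In the Fos family, Fos and Fosl2 were well expressed in both libraries, and Fosb and Fosl1 were low. Fos, the founding member (chromosome 12, 85473890 to 85477273 of GRCm38, the assembly also called mm10), had an FPKM of 16.3 in the control library and 18.1 in the iKO-labelled library. The log2 ratio was 0.15 (interval 0.01 to 0.29). Fosl2, which encodes FRA2 (chromosome 5, 32135801 to 32157842), was at 12.2 and 14.5 FPKM, a log2 ratio of 0.25 (interval 0.17 to 0.34). Fosl2 was thus slightly higher in the iKO-labelled library, beyond counting error and well short of the cut-off. With both libraries scaled to the same sum of FPKM, the log2 ratio of Fos was 0.06 and its interval of -0.08 to 0.20 includes no change.

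Fosb (chromosome 7, 19302696 to 19310051) had an FPKM of 0.909 in the control library and 1.78 in the iKO-labelled library, on about 98 and 143 fragments. Fosl1, which encodes FRA1 (chromosome 19, 5447547 to 5455946), was at 0.263 and 1.03 FPKM, on about 13 and 39 fragments. The log2 ratios were 0.97 for Fosb (interval 0.58 to 1.35) and 1.96 for Fosl1 (interval 1.07 to 3.03). Both genes were under an FPKM of 2 in both libraries and did not enter the counts below. When 1 was added to every FPKM as a pseudocount, the log2 ratios were 0.54 and 0.68.

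In the Jun family, the ratios of the members lay on both sides of 0 and the sum was nearly the same in both libraries. Jun (chromosome 4, 95049034 to 95052222) had an FPKM of 31.9 in the control library and 25.5 in the iKO-labelled library, a log2 ratio of -0.32 (interval -0.41 to -0.24). Jund (chromosome 8, 70698949 to 70700616), which is known for steady expression where Jun and Junb respond to signals, had 18.8 and 24.2, a log2 ratio of 0.37 (interval 0.22 to 0.51). Junb (chromosome 8, 84976910 to 84978718), often an antagonist of JUN, had 21.0 and 21.8. The interval of its log2 ratio of 0.05 ran from -0.08 to 0.19 and includes no change. With both libraries scaled to the same sum of FPKM, the Junb ratio was -0.04, so its direction depends on the scaling.

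**Figure D1:**
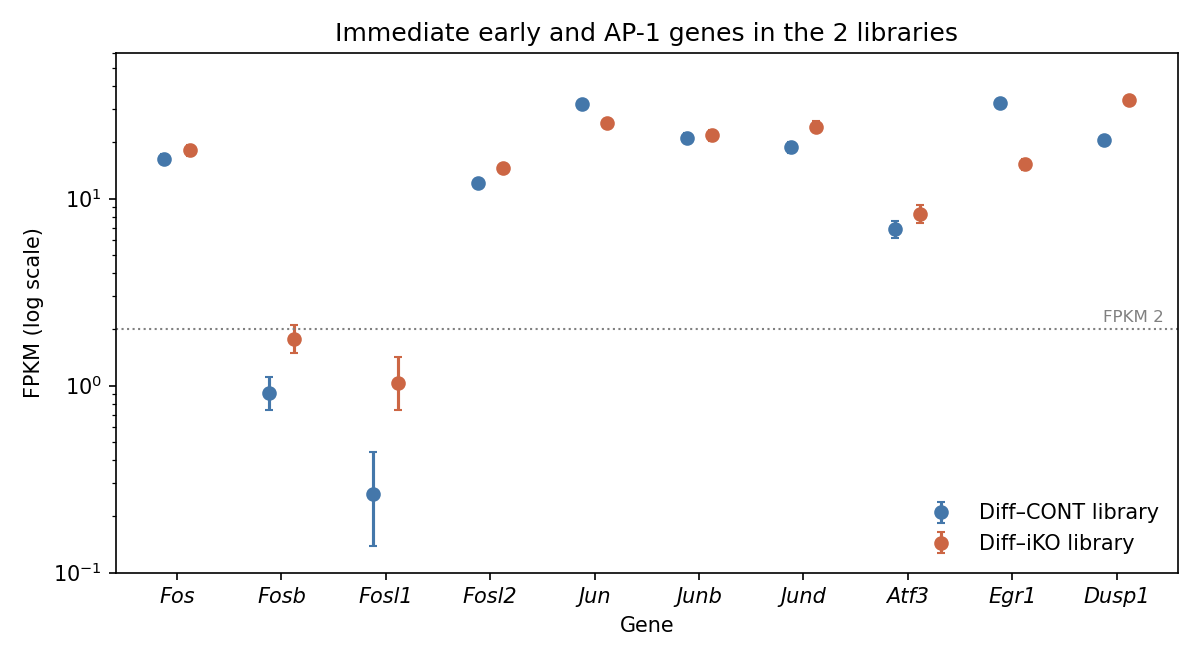
FPKM (log scale) of the 10 genes in the control library (blue) and the iKO-labelled library (orange), with bars for the exact 95% interval of the fragment count. The levels of Fosb and Fosl1 lie under an FPKM of 2 in both libraries, and Egr1 (32.3 to 15.2) and Dusp1 (20.4 to 33.6) show the widest gaps among the others.

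The summed FPKM of the Jun family was 71.8 in the control library and 71.5 in the iKO-labelled library. Within it, Jun made up 44.5% in the control library and 35.6% in the iKO-labelled library. The share of Jund was 26.2% and 33.9%, and that of Junb 29.3% and 30.5%. The 3 genes were thus closer to equal shares in the iKO-labelled library. The summed FPKM of the Fos family was 29.7 and 35.4, of which Fos held 55.0% and 51.2% and Fosl2 41.0% and 40.9%. Jun family RNA exceeded Fos family RNA 2.42-fold in the control library and 2.02-fold in the iKO-labelled library. As a share of both families together, Fos family FPKM was 29.2% (approximate counting interval 28.2 to 30.3%) and 33.1% (31.9 to 34.4%). The difference exceeds counting error, and how it compares with the variation between cultures is unknown.

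**Figure D2:**
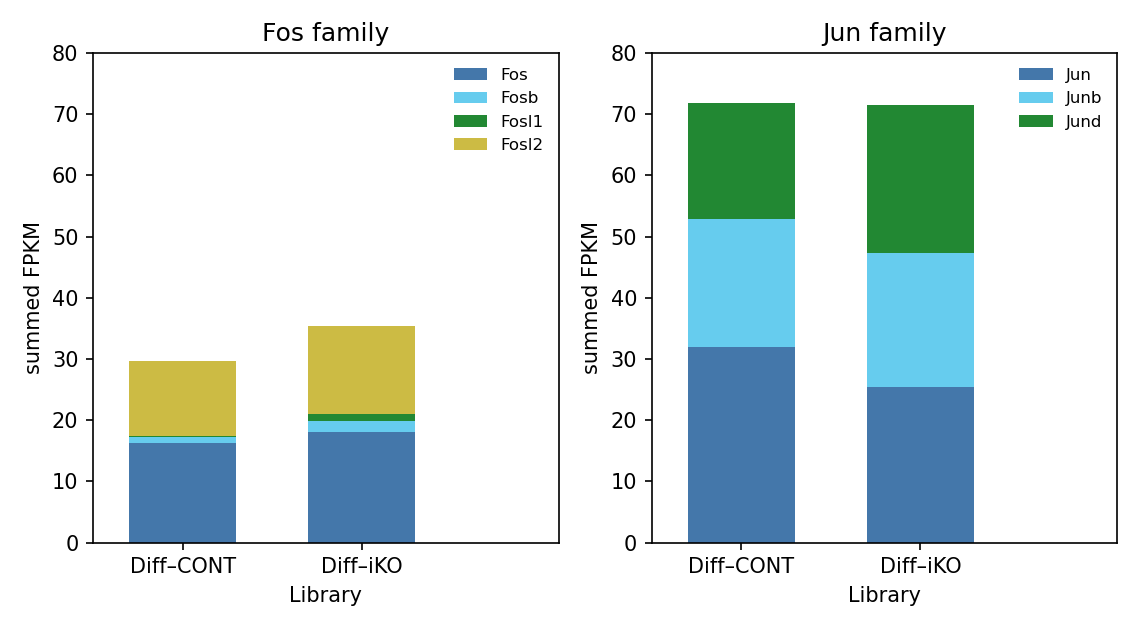
Summed FPKM of the Fos family (left) and the Jun family (right) in each library, with bars stacked by gene. The Jun family sums are 71.8 and 71.5, with a smaller part of Jun and a larger part of Jund in the iKO-labelled library.

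Atf3, which encodes a stress-responsive bZIP factor that can pair with JUN proteins (chromosome 1, 191170296 to 191183340), had an FPKM of 6.85 in the control library and 8.32 in the iKO-labelled library. Its log2 ratio was 0.28 (interval 0.06 to 0.50), or 0.19 (interval -0.03 to 0.40) with both libraries scaled to the same sum. Dusp1, the MAPK phosphatase gene (chromosome 17, 26505590 to 26508519), had an FPKM of 20.4 and 33.6. The fold of 1.64, a log2 ratio of 0.72 (interval 0.60 to 0.83), was the highest ratio among the 8 members with an FPKM of at least 2 in at least 1 library, and 88.7% of all genes at that minimum had a lower ratio.

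Egr1, a zinc finger factor gene induced by serum and growth factors, had the lowest ratio of the 10 members. Its FPKM was 32.3 in the control library, the highest of the 10 members, and 15.2 in the iKO-labelled library, where it came sixth. The log2 ratio was -1.09, a level 2.12-fold lower, with an interval of -1.19 to -0.98. That interval includes the cut-off of -1, so counting error alone does not place Egr1 on either side of it. With both libraries scaled to the same sum, the log2 ratio was -1.18 and the interval of -1.29 to -1.08 lay past the cut-off. Of all genes at the FPKM minimum, 7.09% had a lower ratio. The ratio of Egr1 FPKM to Dusp1 FPKM was 1.58 in the control library and 0.453 in the iKO-labelled library, so the order of these genes was turned around.

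With the cut-off of the study's methods, FC ≥ 2 and FPKM ≥ 2, here applied as FPKM ≥ 2 in at least 1 library, 0 of the 8 members at the FPKM minimum were higher and 1, Egr1, was lower in the iKO-labelled library. Over all 12376 genes at that minimum, 6.73% were higher and 8.39% were lower by the same rule, so these counts do not set the members apart. The median log2 ratio of the 8 members was 0.20, with 6 above 0 and 2 below, and the median of all 12376 genes was -0.0046. At FC ≥ 1.5, Dusp1 was also past the cut-off, in a background of 14.9% higher and 17.6% lower genes. Summed over the 10 members, FPKM was 161 in the control library and 164 in the iKO-labelled library, with lower values for Egr1 and Jun and higher ones for the other 8.

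**Figure D3:**
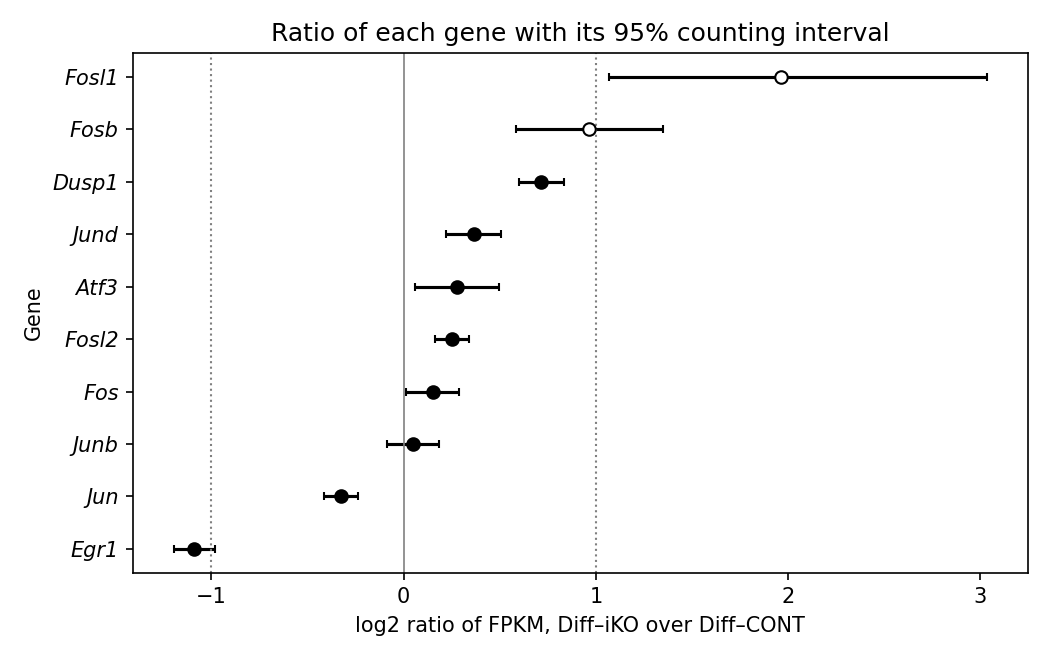
log2 ratio of FPKM, Diff–iKO over Diff–CONT, for each gene, with bars for the exact 95% counting interval and dotted lines at -1 and 1. Filled points reached an FPKM of 2 in at least 1 library, open points did not, and among the filled points only Egr1 (-1.09) lies past a dotted line.

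The order of levels differed between the libraries. In the control library it ran from Egr1 and Jun through Junb, Dusp1, Jund, Fos, Fosl2 and Atf3 to Fosb and Fosl1. The counting intervals of neighbours overlapped for Egr1 and Jun, for Junb and Dusp1, and for Dusp1 and Jund. In the iKO-labelled library it ran from Dusp1 through Jun, Jund, Junb, Fos, Egr1, Fosl2 and Atf3 to Fosb and Fosl1. There, neighbours overlapped for Jun and Jund, Jund and Junb, and Egr1 and Fosl2. Among all 24354 genes, Egr1 stood above 89.3% in the control library and above 77.3% in the iKO-labelled library. Dusp1 stood above 82.2% and 89.2%. The levels of Fosl2, Atf3, Fosb and Fosl1 kept the same order in both.

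**Figure D4:**
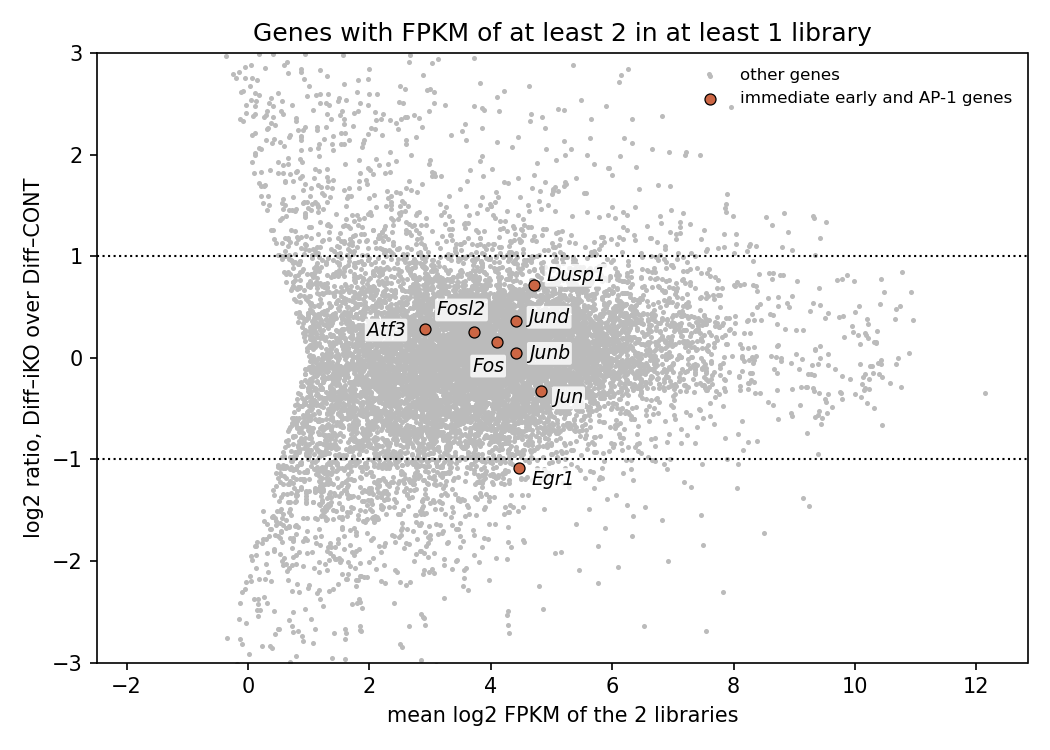
Mean log2 FPKM of both libraries against the log2 ratio, Diff–iKO over Diff–CONT, for genes with an FPKM of at least 2 in at least 1 library (grey) and the 8 members among them (orange), with dotted lines at -1 and 1. The axis ends at -3 and 3, and Egr1 lies just below the lower line while the other 7 members lie between the lines.

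Genes whose FPKM lay closest to those of a member in both libraries were looked up by distance in log2 FPKM. With 2 libraries, such likeness rests on 2 values. For Egr1 the nearest were Tmem55a (32.5 and 15.5), Egln1 (34.2 and 15.0) and Rcbtb2 (31.6 and 16.1). For Dusp1 the nearest were Tmem87a (20.2 and 33.1), Snhg20 (19.98 and 33.8) and Pik3r4 (20.7 and 32.9).

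The structure of the genes varied among the members. Jun, Junb and Jund have 1 exon each in the transcript used here, against 2.32% of the 11907 genes at the FPKM minimum with a matched RefSeq transcript. The median number of exons was 4 over the 10 members and 9 over those genes. The pentamer ATTTA, the core of AU-rich elements that shorten the life of an RNA, occurred 3 or more times in the 3′ UTR of 5 of the 10 members, against 30.6% of genes. It was counted 8 times in Fosl2, 4 times each in Fos, Jun and Dusp1, 3 times in Atf3, 2 times each in Junb and Egr1, and once each in Fosb, Fosl1 and Jund. Per kilobase of 3′ UTR the median was 2.19 over the members and 1.10 over the genes.

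Of 33 other immediate early genes listed, 26 reached the FPKM minimum, 5 were higher past the cut-off and 0 were lower, against the background of 6.73% and 8.39%. Their median log2 ratio was 0.26. Klf2 (6.15 and 33.7) and Klf4 (4.77 and 21.9), which also serve as pluripotency factors in ESCs, had log2 ratios of 2.45 and 2.198. Plk3, a stress-responsive kinase gene, had an FPKM of 6.64 and 22.3, and Ptgs2, which encodes the prostaglandin synthase COX-2, had 16.2 and 47.1. Nfkbiz (3.47 and 7.22) was the fifth. Cyr61, a secreted matrix protein gene and the highest of the list, had 173 and 267, short of the cut-off. Ier2, which like Egr1 responds to serum, was lower at 42.6 and 27.2 (log2 ratio -0.64) without reaching it. The Egr1 paralogs Egr2 (0.671 and 1.16), Egr3 (0.741 and 0.618) and Egr4 (0.0870 and 0.0466) were under an FPKM of 2 in both libraries.

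Among other bZIP factors that can join AP-1, 9 of 13 genes reached the FPKM minimum, with a median log2 ratio of -0.13. Of the 9, 0 were higher past the cut-off and 2 were lower, against 6.73% and 8.39% of all genes. Maf, a large MAF factor gene, was among the 2 lower genes (8.54 and 3.25). The small MAF genes Mafg (21.7 and 37.5) and Mafk (9.67 and 19.0) had ratios in the other direction, with log2 ratios of 0.79 and 0.97. Atf2, a JUN partner, was 18.9 and 19.5. Batf had 0.975 in the control library and was listed at 0 in the iKO-labelled library.

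Upstream of these genes, all 17 genes of the MAPK cascade reached the FPKM minimum, 0 were higher past the cut-off and 3 were lower (all genes 6.73% and 8.39%), with a median log2 ratio of -0.19. Mapk3, which encodes ERK1, had an FPKM of 82.7 and 39.1 (log2 ratio -1.08). Mapk12, a p38 kinase gene, had 24.8 and 8.97, and Mapk10, a JNK gene, had 2.96 and 1.42. None of the 10 genes of SRF, its cofactors and CREB was past the cut-off, against the same background. Srf itself was 14.6 and 11.96. Of the 9 other MAPK phosphatase genes, 0 were past the cut-off in either direction, against the same background. Their median was 0.27, and Dusp9 (48.7 and 89.7, log2 ratio 0.88) and Dusp5 (6.88 and 12.8, log2 ratio 0.89) came closest.

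Of 15 genes known as AP-1 targets, 11 reached the FPKM minimum, 6 were past the cut-off and higher, and 0 were lower (all genes 6.73% and 8.39%), with a median log2 ratio of 1.13. The urokinase gene Plau (5.85 and 12.8) and the gene of its receptor, Plaur (23.5 and 105), were among them. So were Timp1 (34.0 and 88.9), an inhibitor of metalloproteases, Hmox1 (29.3 and 79.2), a heme oxygenase gene, and Spp1 (73.6 and 508), which encodes osteopontin. Ccnd1, the cyclin D1 gene, was 28.2 and 22.8, and Cd44 was 18.4 and 14.6. Many of these genes answer to other factors as well, and AP-1 binding was not measured. For EGR1, 7 partners and targets were listed and 6 reached the minimum, of which F3 (32.4 and 119) and Icam1 (14.5 and 41.3) were past the cut-off and higher, and 0 were lower, against the same background. The median log2 ratio of the 6 was 0.70, with 5 above 0. The growth factor genes Pdgfa (30.1 and 47.96) and Pdgfb (13.7 and 22.8) had log2 ratios of 0.67 and 0.73. The exception was the EGR1 corepressor gene Nab2, itself induced by EGR1, at 14.2 and 9.35 (log2 ratio -0.61).

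**Figure D5:**
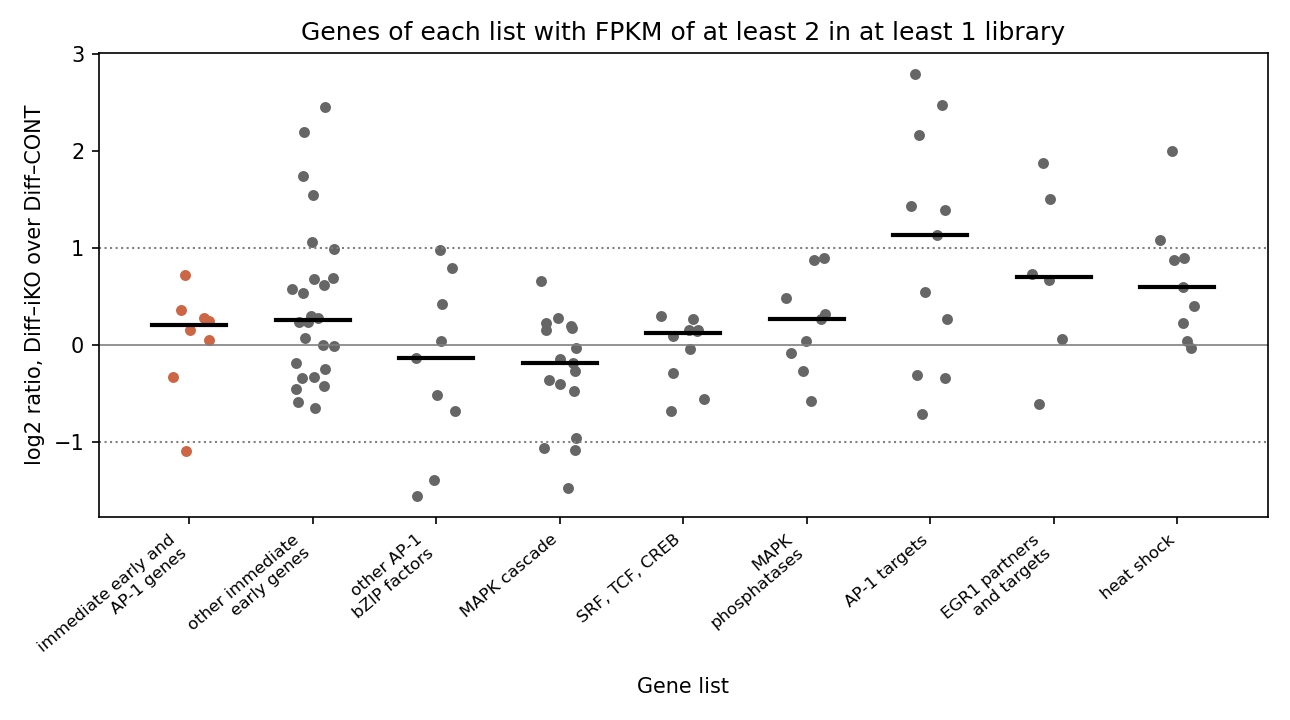
log2 ratio of FPKM, Diff–iKO over Diff–CONT, of each gene with an FPKM of at least 2 in at least 1 library (points) by gene list, with the median as a bar and dotted lines at -1 and 1. The members (orange) have a median of 0.20, the MAPK cascade -0.19 and the AP-1 targets 1.13.

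Markers of cell types and heat shock genes also differed between the cultures. Past the cut-off, 6.73% of all genes at the FPKM minimum were higher and 8.39% were lower. Pluripotency markers, which mark undifferentiated ESCs, were detected in both libraries and 4 of 5 were higher in the iKO-labelled library past the cut-off, with summed FPKM of 133 and 453. Pou5f1 alone was 60.8 and 247. Of 5 mesenchymal markers 4 had a ratio below 0, with a median log2 ratio of -0.84, and 2 of them were lower past the cut-off, Col3a1 (386 and 187) and Pdgfra (19.1 and 4.65). Their sum of 1335 and 1424 was set by Col1a1 (880 and 1199). Of 5 cardiomyocyte markers, Tnnt2 (14.7 and 4.17) and Myh7 (8.96 and 1.44) were lower past the cut-off. The other 3 were under an FPKM of 2 in both libraries. The sum of the 5, 28.3 and 7.57, was set mostly by Tnnt2 and Myh7. Of 5 endothelial markers, 4 were past the cut-off and lower. The exception was Pecam1 (16.2 and 53.9), which ESCs also express, and with it the endothelial sum was 48.2 and 66.1. Of the blood markers, summed at 20.9 and 40.1, the macrophage-associated Csf1r (2.91 and 12.8) and Cd68 (10.5 and 27.1) were higher past the cut-off, and the globin gene Hba-a1 (7.41 and 0.230) was lower. Ptprc and Adgre1 were under an FPKM of 0.1 in both libraries. Of 5 epithelial and endoderm markers, the visceral endoderm genes Afp (45.9 and 0.422) and Ttr (66.7 and 2.28) were lower past the cut-off. Krt8 (407 and 575), Cdh1 (166 and 268) and Epcam (79.0 and 116) had ratios above 0 short of it and set the sum of 765 and 962. Of 10 heat shock genes, 9 reached the minimum and 8 of these had a ratio above 0, with a median of 0.60. Past the cut-off, 2 were higher, Hspb1 (87.3 and 348) and Hspa1b (1.26 and 2.65), and 0 were lower, against 6.73% and 8.39% of all genes. The part of these differences in the levels of Egr1, Dusp1 and the other members was not tested. In bulk RNA, fewer cells of a type and less RNA per cell cannot be told apart.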

How the data were processed

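The authors deposited FPKM values of 24354 genes for 2 libraries. The submitters' processing notes and the paper's methods name STAR 2.7.9a, mm10, and Cuffquant and Cuffnorm of Cufflinks 2.2.1. The gene annotation and strand setting are not given in the sources used here. Columns were assigned to libraries by name, and 0 other value columns and 0 duplicate symbols were present. The members and the gene lists were chosen with earlier results of these data known.

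The log2 ratio of Diff–iKO over Diff–CONT was taken without a pseudocount, with a cut-off of FC ≥ 2 and FPKM ≥ 2 in either library or both. No p-value is given, since each condition has 1 library. Low FPKM values of genes with a single RefSeq transcript (1000 nucleotides or longer) fall on whole multiples of what 1 fragment is worth. Of the low values, 87.3% in each library lay within 0.2 of a whole multiple, against 40% by chance. Fragments were computed on the shortest RefSeq-matched transcript of GENCODE vM21 (GRCm38, matched for all 10 members) and gave exact Clopper-Pearson 95% intervals for ratios and exact Poisson intervals for levels. The interval of the Fos family share is approximate, with the Poisson error of each gene carried to the log odds of the share. Fragments are therefore approximate. Printed genes were all members, Ino80, genes of each list past the cut-off or with the highest FPKM, cell markers and nearest genes. Values of some listed genes are not reported here. Egr2, Egr3, Egr4, Ier2, Batf, Mafk, Dusp5, Srf, Ccnd1, Cd44, Pdgfb and Nab2 were added after their values were seen. Promoter sequences are RefSeq's (GRCm38.p6), searched on both strands. The step fit was rerun on counts simulated with the fitted steps for single-transcript genes, which does not test genes with several transcripts. Alternatives were other pseudocounts, filters, scalings and FC cut-offs. The tools were scipy 1.17.1, pandas 2.3.3, numpy 2.4.6 and matplotlib 3.10.9 under Python 3.11.15.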

Additional observations from a re-analysis of the deposited data

How the results depend on the processing

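The count of members past the cut-off, 0 higher and 1 lower, moved with the cut-off and the filter. Without the filter on FPKM 1 member, Fosl1, was higher. At FC ≥ 1.5 1 member, Dusp1, was higher, as were 14.9% of all genes, and at FC ≥ 4 0 members were lower. The shares of all genes without the filter and at FC ≥ 4 were not computed. Under the pseudocounts, the scalings and the stricter filter, Egr1 alone was past the cut-off. Its log2 ratio lay between -1.18 and -1.04. With both libraries scaled to the same sum of FPKM, the median log2 ratio of the members was 0.11 rather than 0.20. The ratio of Junb changed sign there. The ratios of the other 9 members kept their sign under every pseudocount and scaling tried. With Atf3 counted in the Fos family, its share of both families was 33.7% in the control and 38.0% in the iKO-labelled library. With Fosb and Fosl1 left out, it was 28.4% in the control and 31.3% in the iKO-labelled library. No paired analysis was possible because each condition has 1 library. Counting error limits Fosl1 most, with about 13 fragments in the control library.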
